A study of Rattus norvegicus with 18 samples.

Results

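Gene expression was compared among 6 medullary thyroid carcinomas of homozygous mutant rats, measured on 6 of the 18 arrays of the study. These arrays were chosen by their titles, which name the homozygous Cdkn1b mutant at 9 months, and they form 1 of 3 groups in the study. All 6 animals were homozygous mutants of Cdkn1b, which encodes the cell cycle inhibitor p27Kip1, on a Sprague–Dawley white eye/Wistar–Kyoto background, were untreated and were kept under specific-pathogen-free conditions. The mutation was present in every cell of the animal, and no normal thyroid was part of the group. The labels give every array its own animal code and number the tumours as replicates 1 to 6, which are the tumour numbers used here. Sex, litter and array date are not among the labels. Total RNA of each tumour was hybridised to an Affymetrix gene array, and the values are log2 signals, so that a difference of 1 is a factor of 2 in signal.

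Medullary thyroid carcinoma is a tumour of the C cells, the neuroendocrine cells of the thyroid that make calcitonin. C cells store peptide hormones together with granins in dense-core vesicles, and Calca encodes both calcitonin and a calcitonin gene-related peptide. p27Kip1 restrains cyclin-dependent kinases, and rats that lack it, known as MENX rats, develop tumours in several neuroendocrine glands, the parathyroid included. A tumour specimen is a mixture, so its RNA also comes from thyroid follicles, vessels, stroma and whatever other tissue was removed with it.

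Of 29214 probe sets, 15310 carried a single gene symbol in the platform annotation. The brightest probe set stood for each of 14506 genes. Array medians lay between 7.60 and 7.65. Correlations between 2 arrays over all probe sets lay between 0.975 for tumours 1 and 3 and 0.994 for tumours 5 and 6, and the array of tumour 3 was the least like each of the others. Over all 14506 genes 25.4% were highest and 28.5% lowest in tumour 3, and 25.2% were highest and 26.1% lowest in tumour 1. Tumours 2, 4, 5 and 6 were highest for 12.4%, 10.9%, 11.9% and 14.2% of genes and lowest for 9.85%, 8.46%, 14.2% and 12.8%. The array of tumour 1 had the narrowest spread of signals (SD over probe sets 2.07, against 2.13 to 2.19 on the other arrays). Its 1105 olfactory receptor genes, which lie near the bottom of the scale, had a median signal of 5.31, against 4.79 to 5.04 on the other arrays. Both features of that array were noticed after the data had been seen, and their part in the results on tumour 1 was not tested.

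The brightest genes held nearly the same signal in all 6 tumours. The 20 highest means ran from 14.29 for Tg, the thyroglobulin of follicular cells, to 13.38 for Ctsb, a lysosomal protease, and the next mean in order was 13.36. Their SDs over the tumours lay between 0.033 and 0.18, with a median of 0.095. Tg gave 14.18 at the lowest, 14.32 at the median and 14.34 at the highest. Calca, behind Tg and Rps29 in this order, gave 13.76 at the lowest, 13.92 at the median and 14.02 at the highest. Tumour 3 had the lowest Tg, with tumour 4 next at 14.27, and the highest Calca, with tumour 1 next at 13.95.

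The other 18 were ribosomal and translation genes (Rps29, Rps4x, Rps20, Rpl32, Eef1a1), the iron-storage ferritins Fth1 and Ftl1, the metal-binding Mt2A, the chaperones Hspa8 and Pdia3, Gapdh, B2m, Actb, Gnas, Rhoa, Igfbp7, Txn1 and Ctsb. Ferritin heavy chain Fth1 had the largest SD of the 20 at 0.18, with 13.25 in tumour 3 and 13.70 in tumours 5 and 6. Eef1a1, an elongation factor of translation, had the smallest at 0.033. Array maxima lay between 14.44 and 14.49, so these genes sat close to the highest signals of the arrays. Whether differences are compressed there was not tested. The order is one of probe set signals, which also depend on probe affinity, and is not a ranking of transcript numbers.

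Of the best known C cell genes and the mutated gene, Ret, Cdkn1b and Nkx2-1 had SDs below the median of all genes, whereas Chga's lay above the upper quartile. Ret, the receptor kinase of C cells, gave 11.03 at the lowest, 11.14 at the median and 11.36 at the highest, with an SD of 0.11. Chga, the granin chromogranin A, gave 12.34 at the lowest, 12.54 at the median and 13.03 at the highest, with an SD of 0.26. Cdkn1b itself gave 10.96, 11.06 and 11.25, with an SD of 0.10. The labels do not place the probe set relative to the mutation, so this signal is no check of the genotype. Nkx2-1, a transcription factor of both thyroid lineages, gave 10.63 at the lowest, 10.81 at the median and 10.94 at the highest. For each of these genes the 6 tumours lay within 1 log2 unit of each other.

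Across the 14506 genes the median SD was 0.163, with quartiles at 0.112 and 0.240. An SD of at least 0.5 was reached by 627 genes (4.32%), and an SD of at least 1 by 107 genes (0.738%). These shares are the background for the counts in gene lists below. The spread was not shared out evenly among the tumours. Of the 627 variable genes 346 were highest in tumour 3, 141 in tumour 6, 80 in tumour 5, 26 in tumour 1, 25 in tumour 4 and 9 in tumour 2. The lowest tumour was 1 for 210 of them, 5 for 145, 2 for 119, 3 for 88, 6 for 39 and 4 for 26. Without tumour 3 the count of genes with an SD of at least 0.5 was 282, of which 253 were among the 627.

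The first principal component of the 14506 genes held 44.9% of the variance, the second 28.5% and the third 13.1%. On the first component tumour 3 scored 41.5 and the others between -15.6 and 2.88. Its positive end was led by Anxa10, Hepacam2, Gad2, Gcg and Opcml, and its negative end by the muscle genes Myh4, Pvalb, Actn3, Atp2a1 and Pygm. On the second component tumours 1 and 2 scored 25.8 and 15.8 and tumour 6 scored -18.3. Its positive end held Sult1c2, a sulfotransferase, with Spetex2el3 and olfactory receptor genes, and its negative end Myh1, Myot, Pygm, Mb and Myl1. The third component set tumours 2 and 4, at 16.4 and 9.60, against tumours 1 and 5, at -12.4 and -10.5. Lipf, Csap1, Ucp1, Sec14l3 and Myh11 led its positive end and Adgrg2, Rhcg, Pth, Gcm2 and Tpx2 its negative end.

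**Figure D1:**
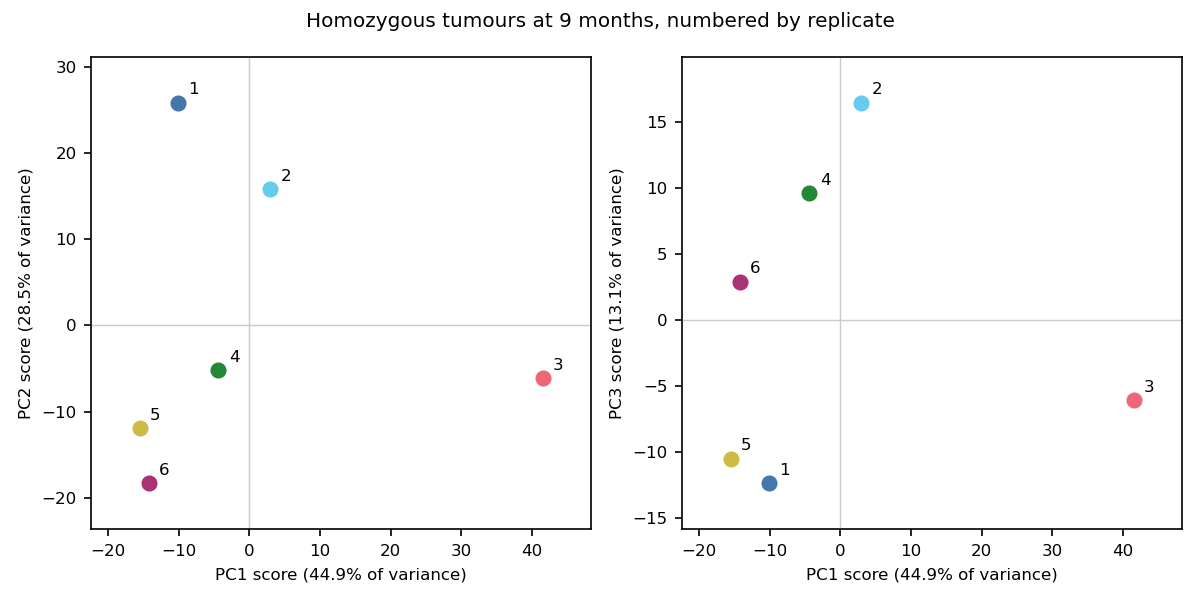
Scores of the 6 tumours, numbered by replicate, on principal components 1 and 2 (left) and 1 and 3 (right); axes are scores in log2 units with the share of variance of each component. Tumour 3 lies alone at 41.5 on the first component, and tumours 1 and 2 lie at the top of the second at 25.8 and 15.8.

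When the 627 genes were grouped by the similarity of their profiles (average linkage on 1 minus Pearson r, divided at 0.3), 9 clusters of at least 10 genes held 605 of them. The largest cluster had 324 genes, all of them highest in tumour 3. The next had 101 genes, led by Myh4, Pvalb and Pygm, of which 91 were highest in tumour 6. A cluster of 38 genes led by Adgrg2, Rhcg and Gcm2 had 37 highest in tumour 5 and 34 lowest in tumour 2. A cluster of 40 genes led by Slc5a5 had 39 lowest in tumour 3. The remaining 5 had 36 genes led by Krt4 and Krt13, 26 led by Sst and Gcg, 15 led by Bpifa1, 13 led by Sult1c2 and 12 led by Lipf. Because the clusters were built from these same values, they are a description of the tumours and were not tested.

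**Figure D2:**
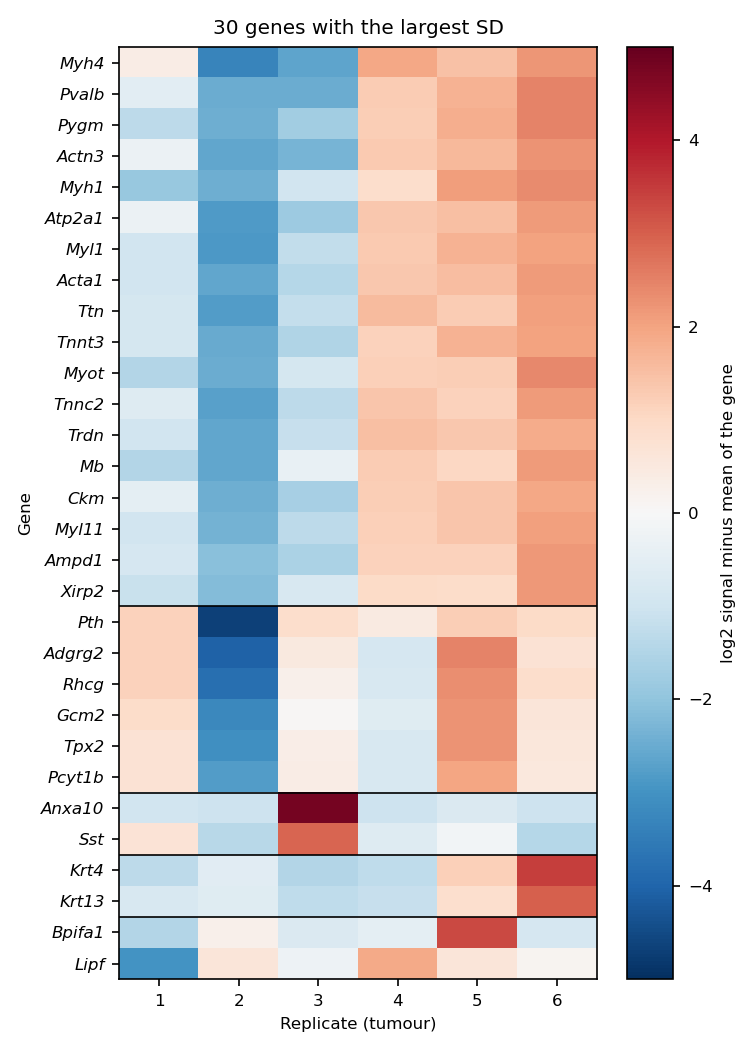
Deviation of each tumour (columns, replicates 1 to 6) from the gene's mean log2 signal, for the 30 genes with the largest SD; black lines separate skeletal muscle, parathyroid and co-varying, tumour 3, squamous, and airway or lipase genes. The 18 muscle genes are lower in tumours 1, 2 and 3 than in tumours 4, 5 and 6, Pth reaches its minimum of 8.33 in tumour 2, and Anxa10 its maximum of 10.72 in tumour 3.

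Skeletal muscle genes made up 18 of the 30 most variable genes, a list that ended at an SD of 1.62 for Xirp2 and left out Gcg at 1.61. In muscle, fast and slow fibres carry different isoforms of myosin, troponin and the sarcoplasmic calcium pump, while skeletal actin, creatine kinase and titin are shared. Genes of this programme are switched on by factors of the MyoD family, which bind E-boxes such as CAGCTG. The windows of 250 bases before the transcription start of 4 of these genes are shown because the 4 varied together over the tumours. They come from RefSeq (GRCr8), lie at chr10:52421898-52422147 (plus strand, Myh4), chr1:211604402-211604651 (minus strand, Actn3), chr19:68784195-68784444 (minus strand, Acta1) and chr1:88189211-88189460 (plus strand, Ckm), and are written 5′ to 3′ on the gene's strand with CAGCTG in capitals.
Myh4: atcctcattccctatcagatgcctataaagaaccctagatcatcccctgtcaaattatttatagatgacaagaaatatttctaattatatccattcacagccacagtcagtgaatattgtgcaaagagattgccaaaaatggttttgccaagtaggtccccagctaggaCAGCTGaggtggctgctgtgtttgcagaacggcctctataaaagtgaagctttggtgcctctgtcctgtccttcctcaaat
Actn3: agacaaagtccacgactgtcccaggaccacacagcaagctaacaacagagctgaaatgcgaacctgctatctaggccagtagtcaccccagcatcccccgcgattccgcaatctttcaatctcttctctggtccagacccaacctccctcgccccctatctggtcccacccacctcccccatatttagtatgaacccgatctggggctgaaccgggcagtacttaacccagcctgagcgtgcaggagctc
Acta1: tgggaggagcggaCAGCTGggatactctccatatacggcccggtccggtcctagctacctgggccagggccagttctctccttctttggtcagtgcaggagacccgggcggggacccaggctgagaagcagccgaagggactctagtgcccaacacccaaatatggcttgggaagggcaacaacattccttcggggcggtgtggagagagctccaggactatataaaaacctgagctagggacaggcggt
Ckm: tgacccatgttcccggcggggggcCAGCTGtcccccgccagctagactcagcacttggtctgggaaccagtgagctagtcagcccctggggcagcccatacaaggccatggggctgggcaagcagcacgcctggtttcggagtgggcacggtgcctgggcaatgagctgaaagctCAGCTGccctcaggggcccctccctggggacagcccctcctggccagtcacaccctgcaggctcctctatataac
The motif was found once in the windows of Myh4 and Acta1, in 2 places for Ckm and not for Actn3. It reads the same on both strands, and no other motif was searched. Of 28 muscle genes measured 24 had a window in the table and 6 of these held the motif (25%: Acta1, Atp2a1, Ckm, Des, Myh4, Myh7), against 12.9% of the 27457 genes with a window. The difference of these shares was not tested, and a match says nothing of binding.

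Myh4, the fast myosin heavy chain of type IIB fibres, had the largest SD of all genes at 2.39. It gave 6.55 at the lowest in tumour 2, 10.74 at the median and 12.06 at the highest in tumour 6, a range of 45.6-fold in signal. Tumour 3 was next to the bottom at 7.21, tumour 1 was between at 10.20, and tumours 4 and 5 were near the top at 11.76 and 11.29. Actn3, the fast-fibre actinin of the Z disc, gave 6.72 at the lowest, 9.82 at the median and 11.55 at the highest. Acta1, skeletal muscle actin, gave 8.58, 11.38 and 13.33, and so entered the range of the brightest genes in tumour 6. For both genes tumours 4, 5 and 6 stood above tumours 1, 2 and 3.

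For all 18 muscle genes among the 30 with the largest SD, tumours 4, 5 and 6 each stood above tumours 1, 2 and 3. Tumour 1 was above tumour 3 for most of them and below it for Mb, Myh1, Myot and Xirp2. Pvalb, the calcium buffer parvalbumin, gave 5.85 at the lowest and 10.83 at the highest (SD 2.16). Atp2a1, the calcium pump of fast fibres, gave 7.59 and 12.54 (SD 1.99). Pygm, the glycogen phosphorylase of muscle, gave 7.46 and 12.37 (SD 2.08). Each had its minimum in tumour 2 and its maximum in tumour 6. The thin- and thick-filament genes Tnnt3, Tnnc2, Myl1, Myl11 and Myh1, the giant sarcomere protein Ttn, the Z-disc protein Myot, the calcium-release protein Trdn, the oxygen store Mb, Ckm, Ampd1 and Xirp2 had SDs between 1.62 and 2.06.

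All 11 measured genes of the fast-fibre list had an SD of at least 0.5, with a median SD of 1.98 beside 0.163 over all genes. All 11 were highest in tumour 6, where 14.2% of all genes were highest, and 10 of 11 were lowest in tumour 2, where 9.85% of all genes were lowest. The mean deviation of the list from each gene's own mean was -2.44 in tumour 2, -1.56 in tumour 3, -0.71 in tumour 1, 1.14 in tumour 4, 1.44 in tumour 5 and 2.13 in tumour 6. Of 17 genes shared by fibre types or typical of slow fibres, 16 had an SD of at least 0.5, 16 were highest in tumour 6 and 12 lowest in tumour 2. In specimens of mixed tissue, fewer cells of a type and less RNA per cell cannot be told apart, here and in every result on a cell type that follows.

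In the slow or shared list, 5 slow-fibre genes differed from the fast ones in which tumours were high. Myh7, the slow myosin heavy chain, gave 6.76 at the lowest, 7.22 at the median and 10.11 at the highest. Tnnt1, slow troponin T, gave 5.84 at the lowest, 5.98 at the median and 7.94 at the highest. Tnni1 reached 8.87, Tnnc1 8.18 and Myl2 7.36 in tumour 6, with medians of 7.05, 6.86 and 6.02. All 5 were high in tumour 6 alone. Tumours 4 and 5, with Myh4 signals of 11.76 and 11.29, stayed with tumours 1, 2 and 3 at the bottom of these 5 genes. These 5 genes fell into the cluster led by Krt4. The 11 fast genes and 11 of the slow or shared list, Myl3 among them (SD 1.28), were in the cluster led by Myh4. Casq2 of the slow or shared list was highest in tumour 6 at 7.44 and next in tumour 4 at 7.22.

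Myh4 was used as the anchor for the genes most like it. Among the other 14505 genes 0.807% had an r of at least 0.9 with it, and among the 626 other variable genes 28 did. The closest were Actn3 (r = 0.982, rho = 0.943), Atp2a1 (r = 0.981, rho = 0.943), Ckm (r = 0.973, rho = 0.943), Pvalb (r = 0.966, rho = 0.943) and Tnnc2 (r = 0.954, rho = 1). Without tumours 2 and 3, the pair farthest from the median of Myh4, these values lay between 0.925 and 0.986. By the exact permutation test over 720 pairings (two-sided) 4.44% of all genes had an unadjusted p under 0.05 with Myh4, and 0 had an adjusted p under 0.05 (Benjamini-Hochberg over all genes; smallest 0.909). With 6 tumours this test cannot go below 0.00139. An adjusted p under 0.05 over all genes therefore needs a large number of them at that floor at once. The count of 0, here and for the other anchors below, could hardly have come out otherwise and says little.

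Parathyroid genes formed the next most variable group and had a different order of tumours. Parathyroid chief cells secrete parathyroid hormone, sense calcium through Casr, and need the transcription factors Gcm2 and Gata3. Pth, the hormone itself, gave 8.33 at the lowest in tumour 2, 13.93 at the median and 14.25 at the highest in tumour 5. The other 5 tumours lay between 13.45 and 14.25, close to the highest signals of the arrays, so that the range of 60.3-fold in signal was set by tumour 2. The SD of Pth was 2.31 over the 6 tumours and 0.313 without tumour 2.

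Other parathyroid genes also separated the other 5 tumours. Gcm2, which is needed for the gland to form, gave 5.89 at the lowest in tumour 2, 9.45 at the median and 11.34 at the highest in tumour 5. Kl, the co-receptor klotho of fibroblast growth factor 23, gave 6.89, 9.27 and 11.13. Gata3 gave 7.25, 9.35 and 11.26. Tumour 2 was lowest and tumour 5 highest for all of them, and tumour 4 was next to the bottom (Gcm2 8.50, Kl 8.30, Gata3 8.52). Casr, the calcium-sensing receptor, which C cells express as well, gave 12.85 at the lowest, 13.08 at the median and 13.56 at the highest, and its highest tumour was 3.

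Of 9 parathyroid list genes measured, 5 had an SD of at least 0.5 (Pth, Gcm2, Kl, Gata3 and Ptprn) and the median SD was 0.64. The list also holds genes of neuroendocrine cells in general. Ptprn, a protein of dense-core vesicles, was one, with 9.97 at the lowest, 10.29 at the median and 11.71 at the highest in tumour 3. The mean deviation of the list was -1.44 in tumour 2 and 0.81 in tumour 5, with the other 4 tumours between -0.24 and 0.33.

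The genes most like Gcm2 followed it through all 6 tumours in the same order. They were Tnfrsf11b (r = 0.998), which encodes osteoprotegerin, the ammonia transporter Rhcg (r = 0.997), the adhesion receptor Adgrg2 (r = 0.995), the spindle factor Tpx2 (r = 0.995) and the crystallin gene Cryba2 (r = 0.994). All 5 had a rho of 1, and without tumours 2 and 5 their r lay between 0.946 and 0.994. Adgrg2 gave 5.20 at the lowest, 9.85 at the median and 11.74 at the highest (the lowest is not known to be above background). Rhcg gave 6.17, 10.50 and 12.24. Both were lowest in tumour 2, next to lowest in tumour 4 and highest in tumour 5. Of all genes 0.386% had an r of at least 0.9 with Gcm2, against 23 of 626 variable genes. Unadjusted, 2.85% of all genes had an exact permutation p under 0.05, and 0 had an adjusted p under 0.05 (smallest 0.959).

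Further genes of this cluster were picked after their values were seen. Cryba2 gave 8.83 at the lowest, 12.20 at the median and 13.45 at the highest. Sostdc1, an antagonist of BMP and Wnt signals, gave 6.92, 9.54 and 11.31. Pcyt1b, an enzyme of phosphatidylcholine synthesis, gave 6.98, 10.22 and 11.77. All were lowest in tumour 2 and highest in tumour 5. Vdr, the vitamin D receptor, by which calcitriol acts on parathyroid cells, had a smaller spread, with 9.69 at the lowest in tumour 2, 10.04 at the median and 11.15 at the highest in tumour 5.

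Tpx2, which activates the Aurora A kinase on the mitotic spindle, varied with the parathyroid genes and apart from the other genes of its list. It gave 6.01 at the lowest in tumour 2, 9.53 at the median and 11.32 at the highest in tumour 5. Plk1, another mitotic kinase, gave 7.20 at the lowest, 7.26 at the median and 8.22 at the highest in tumour 3, where Tpx2 was 9.42. Tumours 2 and 5, the extremes of Tpx2, had Plk1 signals of 7.27 and 7.20.

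**Figure D3:**
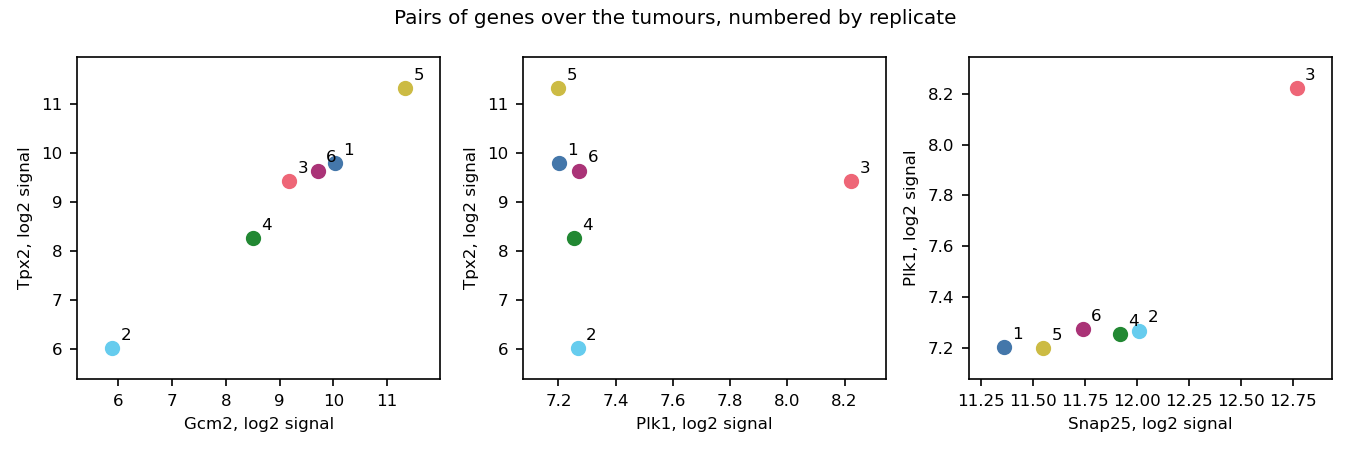
Log2 signals of Tpx2 against Gcm2 (left), Tpx2 against Plk1 (middle) and Plk1 against Snap25 (right), each point a tumour numbered by replicate. Tpx2 lies on a line with Gcm2 (r = 0.995), while Plk1 is at or below 7.27 in 5 tumours and 8.22 in tumour 3.

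Many neuroendocrine genes were highest in tumour 3. Of 31 C cell and neuroendocrine genes measured, 12 had an SD of at least 0.5, the median SD was 0.41, and 22 were highest in tumour 3, where 25.4% of all genes were highest. The mean deviation of the list was 0.69 in tumour 3 and between -0.27 and 0.03 in the others. Without tumour 3 a single member, Tph1, had an SD of at least 0.5. Tph1, which makes serotonin's precursor, was highest in tumour 2 at 8.86, with a median of 7.48.

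Among the members with large SDs were peptide and vesicle genes highest in tumour 3. The granin gene Chga, which is also a member of the parathyroid list, was instead highest in tumour 5. Calcb, which encodes the second calcitonin gene-related peptide, gave 8.85 at the lowest, 9.22 at the median and 12.10 at the highest. Scg2, the granin secretogranin II, gave 10.18, 10.42 and 12.78. Rab3b, a GTPase of vesicle release, gave 8.71, 9.11 and 11.20. The tumours next to tumour 3 were at 9.51 for Calcb, 10.74 for Scg2 and 9.16 for Rab3b, whereas Calca had 14.02 in tumour 3 and 13.95 in the next. Syt4 and Syp, proteins of vesicles, reached 10.13 and 11.27 in tumour 3, with medians of 8.31 and 9.80. Ddc, the decarboxylase of amine synthesis, reached 11.67 with a median of 10.33. Cpe, Foxa2, Dnajc12 and Nnat were highest there too, at 11.91, 9.86, 11.83 and 11.91.

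Hormones of other neuroendocrine cells were also highest in tumour 3, but tumours 1 and 5 came next. Sst, somatostatin, which some C cells make, gave 9.56 at the lowest, 10.59 at the median and 13.90 at the highest, with 11.65 in tumour 1 and 10.85 in tumour 5. Gcg, the glucagon precursor, gave 8.42, 9.24 and 12.75, with 9.75 in tumour 5 and 9.50 in tumour 1. Cbln4, a secreted synaptic protein, gave 6.11, 6.60 and 9.97, and Bcat1, an enzyme of branched-chain amino acids, 6.14, 6.63 and 9.80. Both had tumour 5 as the next highest, at 8.75 and 8.18. Sst, Gcg, Cbln4, Bcat1 and the sodium channel subunit Scn3b were in the cluster of 26 genes, of which 22 were highest in tumour 3.

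Some genes had a signal in tumour 3 far above that in the other tumours. Anxa10, an annexin, gave 10.72 in tumour 3 and between 4.90 and 5.24 in the others, and its SD of 2.34 was 0.144 without that tumour. Opcml, a cell adhesion molecule, gave 8.81 in tumour 3 and between 5.40 and 5.57 in the others. Gad2, which makes the transmitter GABA, gave 10.15 in tumour 3, with 7.54 in tumour 2 and between 6.60 and 6.84 in the others. Hepacam2 gave 9.64 in tumour 3 and between 5.74 and 6.51 in the others. Nalcn, a sodium leak channel, gave 9.83 in tumour 3 and between 6.39 and 6.93 in the others, and its other probe set followed with r = 0.993.

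**Figure D4:**
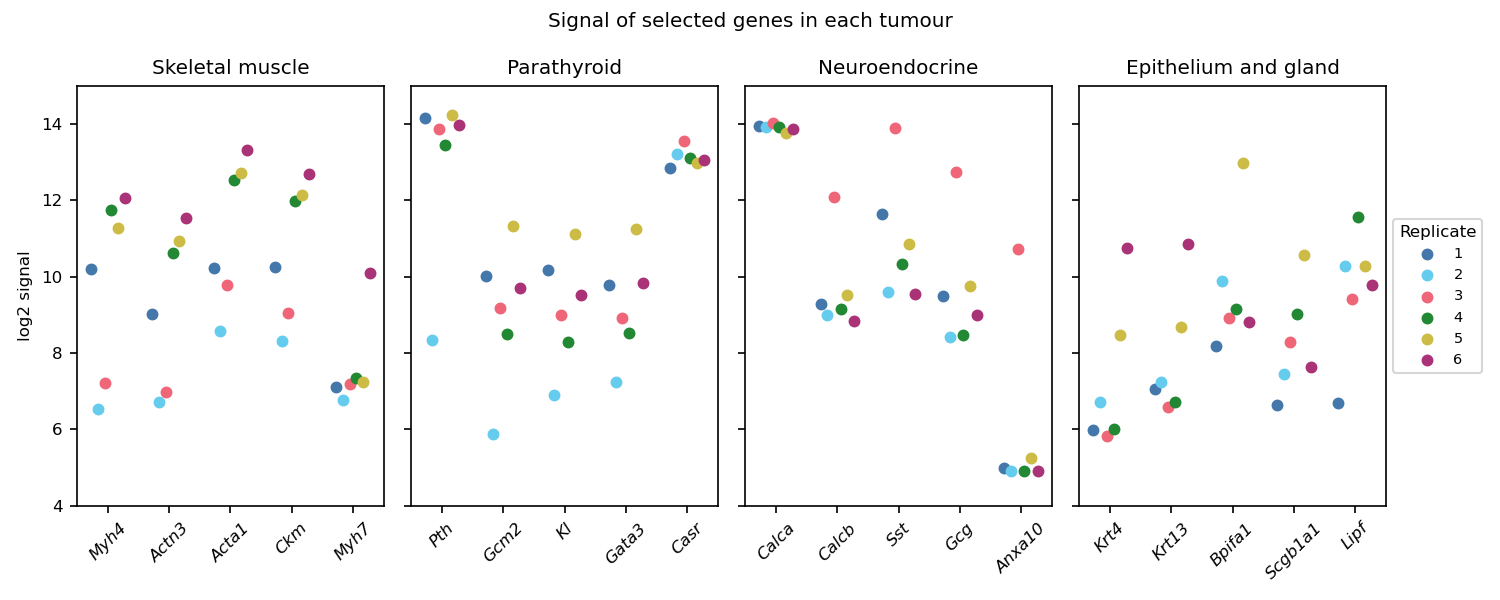
Log2 signal of selected genes in each of the 6 tumours (colours), in 4 panels for skeletal muscle, parathyroid, neuroendocrine, and epithelial or gland genes. Myh4, Actn3, Acta1 and Ckm separate tumours 4, 5 and 6 from 1, 2 and 3, Myh7 is high in tumour 6 alone, Pth is low in tumour 2 alone (8.33), Calcb, Sst, Gcg and Anxa10 are highest in tumour 3, and Krt4, Bpifa1 and Lipf peak in tumours 6, 5 and 4.

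The vesicle fusion protein Snap25 served as the neuroendocrine anchor, with 11.36 at the lowest in tumour 1, 11.83 at the median and 12.77 at the highest in tumour 3. Of all genes 7.03% had an r of at least 0.9 with it, against 212 of 627 variable genes. Of the 627, chosen by their SD over these tumours, 253 kept an SD of at least 0.5 without tumour 3. Because Snap25 was highest in tumour 3, that choice favours a higher share among the variable genes, and the comparison says little. Nearest were Cxxc4 (r = 0.997), the potassium channel Kcnb2 (r = 0.996), the RNA-binding Celf6 (r = 0.995), the serotonin receptor Htr3a (r = 0.995) and the peptidase Enpep (r = 0.994), each with a rho of 1. Without tumours 1 and 3 their r lay between 0.941 and 0.994. Opposite to Snap25 ran the globin Hbb (r = -0.988), the oxidoreductase Nqo1 (r = -0.977) and the deiodinase Dio1 (r = -0.973). The 5 positive neighbours were picked by their r, so no p is given for them. Unadjusted, 17.1% of all genes had an exact permutation p under 0.05, and 0 had an adjusted p under 0.05 (smallest 0.136).

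Most genes of the dividing cell were highest in tumour 3 as well. Of 29 cell cycle genes measured, 9 had an SD of at least 0.5, and the median SD was 0.30. Tumour 3 was highest for 23 of the 29, beside 25.4% of all genes. Top2a, the topoisomerase of replication and mitosis, gave 6.82 at the lowest, 7.21 at the median and 8.88 at the highest. Rrm2, which supplies deoxynucleotides, gave 6.55, 6.90 and 8.56. Nusap1 reached 8.60 and Ccne2, cyclin E2, 8.62 in tumour 3, with medians of 7.08 and 7.44. The mean deviation of the list was 0.59 in tumour 3 and between -0.31 and 0.05 in the others. Without tumour 3 Tpx2 was the one member with an SD of at least 0.5.

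Plk1 and Snap25 gave r = 0.905 (exact permutation p = 0.0125) and rho = 0.771 (p = 0.103) over the 6 tumours. The adjusted p over 66 pairs of anchor genes was 0.710 for r and 0.963 for rho. Without tumours 1 and 3 r was 0.744. The genes most like Plk1, Tubb3, Tcn2, Pbk, Olr1 and Kif3c (r between 0.996 and 1.00), share with it that 5 tumours were nearly level and tumour 3 was high. An r of at least 0.9 with Plk1 was reached by 262 of 627 variable genes, against 6.71% of all genes. The 627 were chosen by their SD over the same tumours, and 253 of them kept an SD of at least 0.5 without tumour 3. That choice favours a higher share for an anchor that is high in tumour 3, so the comparison of shares says little. Over all anchors, 549 pairings with a variable gene reached this r, and 103 did without tumour 3. Tubb3, a neuronal tubulin, gave 7.40 at the lowest, 7.49 at the median and 9.43 at the highest.

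Most follicular cell genes were lowest in tumour 3. These cells iodinate thyroglobulin and depend on iodide uptake by Slc5a5, oxidation by the Duox1 system and the deiodinase Dio1. Of 13 genes measured, 2 had an SD of at least 0.5, the median SD was 0.33, and 11 were lowest in tumour 3, where 28.5% of all genes were lowest. Slc5a5 gave 8.15 at the lowest in tumour 3, 10.41 at the median and 11.28 at the highest in tumour 6. Dio1 gave 11.32, 12.48 and 12.72, and Duox1 9.31, 10.45 and 10.60. Pax8, the lineage factor of follicular cells, gave 11.82, 12.55 and 12.64. Tumour 3 was apart from all others in these genes, the next lowest tumours being at 12.27 for Dio1, 10.31 for Duox1 and 12.42 for Pax8. The thyrotropin receptor Tshr gave 11.85, 12.23 and 12.49, also with tumour 3 lowest. The share of C cells and of follicular cells in each specimen was not tested.

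The globins Hbb and Hbb-b1 were lowest in tumour 3 as well, at 10.31 and 9.61, and highest in tumour 1, at 11.95 and 11.49. The erythroid list had 2 of 8 members with an SD of at least 0.5, both of them globins. Its mean deviation was -0.45 in tumour 3 and 0.29 in tumour 1.

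Epithelial genes were variable in 3 separate patterns. Krt4 and Krt13, the keratin pair of inner stratified epithelia such as the oesophagus, were highest in tumour 6 and next highest in tumour 5. Krt4 gave 5.83 at the lowest, 6.36 at the median and 10.77 at the highest, and Krt13 gave 6.59, 7.15 and 10.86. In tumour 5 they were 8.47 and 8.69. Sprr3, a protein of the cornified envelope, and Tgm3, the transglutaminase that cross-links it, reached 9.96 and 9.11 in tumour 6, with medians of 6.85 and 6.27. Of 9 squamous list genes measured, 3 had an SD of at least 0.5, and the remaining one, the desmosomal Dsc3, was instead lowest in tumour 3 at 8.53 and highest in tumour 5 at 10.70. Of the 9, only 4 were highest in tumour 6, beside 14.2% of all genes. Tumour 3 was lowest for 7 of the 9, beside 28.5% of all genes.

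Secretory airway genes were highest in tumour 5. Bpifa1, a secreted protein of the upper airways, gave 8.18 at the lowest in tumour 1, 9.04 at the median and 12.97 at the highest. Scgb3a1 and Scgb1a1, secretoglobins of club cells, gave 9.41, 10.54 and 13.42, and 6.65, 7.97 and 10.57. Tumour 5 was highest and tumour 1 lowest in all of them. Of 11 airway genes measured, 5 had an SD of at least 0.5 and 3 were highest in tumour 5, where 11.9% of all genes were highest. Sftpd, a surfactant protein, was highest in tumour 3 at 10.99. Foxj1, the master factor of ciliated cells, had an SD of 0.14, with tumour 1 highest at 7.83. Other genes of the list differed from Foxj1. Cfap126, with an SD of 0.62, was in the cluster of 324 genes highest in tumour 3. Ccdc39 gave 7.89 in tumour 3 and at most 6.9 elsewhere.

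The lipase gene Lipf and Csap1 were highest in tumour 4 and lowest in tumour 1. Lipf, which encodes gastric lipase, gave 6.70 at the lowest, 10.04 at the median and 11.55 at the highest, and Csap1 gave 5.88, 7.91 and 10.02. They clustered with fat and thermogenic genes. Ucp1, the uncoupling protein of brown fat, gave 6.71 at the lowest in tumour 1, 8.29 at the median and 10.22 at the highest in tumour 4. Adipoq, the fat-cell hormone adiponectin, gave 7.82, 8.40 and 9.53 with the same extremes. Of 13 white or shared fat genes, 2 had an SD of at least 0.5 and 10 were highest in tumour 4, where 10.9% of all genes were highest. Of 7 brown fat genes, 2 had an SD of at least 0.5 and 5 were highest in tumour 4. Actc1 and Sln, both genes of cardiac and developing muscle, were also highest in tumour 4, at 10.32 and 10.08, with medians of 7.94 and 7.60.

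Sult1c2 led the genes that were highest in tumour 1. It gave 4.49 at the lowest, 5.10 at the median and 7.42 at the highest, with tumour 2 next at 6.02. The 13 genes of its cluster were all highest in tumour 1, and they included the olfactory receptor genes Or5p60b, Or5b124 and Or4k42b. Olfactory receptor signals as a whole were also highest on that array, as given above.

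Vessel genes varied moderately, and 9 of 17 were lowest in tumour 1. Of 17 endothelial genes, 3 had an SD of at least 0.5 (Aplnr, Tie1 and Sox18), and the median SD was 0.40. Tumour 6 was highest for 11 of the 17, beside 14.2% of all genes. The share of all genes lowest in tumour 1 was 26.1%. Tie1, a receptor of the angiopoietin pathway, gave 8.72 at the lowest in tumour 1, 9.72 at the median and 9.96 at the highest in tumour 5. Aplnr, the apelin receptor, gave 7.71, 8.91 and 8.96. Tumour 3 was next to lowest in both, at 9.08 and 8.21, and the other 4 tumours lay between 9.70 and 9.96 for Tie1 and between 8.90 and 8.96 for Aplnr. Without tumour 1 the number of endothelial genes with an SD of at least 0.5 was 0. Cdh5, the endothelial cadherin, gave 8.61, 9.38 and 9.52, and the genes most like it were Tie1 (r = 0.996), Plxnd1 (r = 0.988), Aplnr (r = 0.986), Podxl (r = 0.982) and Ccr2 (r = 0.982). Without tumours 1 and 3 their r was 0.960, 0.739, -0.008, 0.959 and 0.991 in that order. Unadjusted, 8.98% of all genes had an exact permutation p under 0.05 with Cdh5, and 0 had an adjusted p under 0.05 (smallest 0.322).

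Of 12 smooth muscle and pericyte genes, 10 were lowest in tumour 1, where 26.1% of all genes were lowest. An SD of at least 0.5 was reached by 2. One of them, Des, is shared with skeletal muscle. The other, Myh11, the smooth muscle myosin, gave 7.81 at the lowest in tumour 1, 8.94 at the median and 9.43 at the highest in tumour 2. Cdh5 and Myh11 gave r = 0.892 (exact permutation p = 0.0292, adjusted p = 0.710) and rho = 0.543 (p = 0.297, adjusted p = 0.965). Without tumours 1 and 3 their r was -0.886, so the positive relation rested on those tumours. Fibroblast and matrix genes had 3 of 21 members with an SD of at least 0.5 and a median SD of 0.22.

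Interferon-stimulated genes were high in tumours 5 and 6 together. Usp18, which dampens interferon signalling, gave 7.50 at the lowest, 7.73 at the median and 9.18 at the highest in tumour 6, with 9.16 in tumour 5. Oasl2 gave 7.71, 7.89 and 9.10, with 9.02 in tumour 5, and the antiviral GTPase Mx2 gave 8.38, 8.68 and 9.81, with 9.58 in tumour 5. No other tumour exceeded 7.85 for Usp18, 7.91 for Oasl2 or 8.93 for Mx2. Of 27 measured, 6 had an SD of at least 0.5 and the median SD was 0.38. Tumour 6 was highest for 18 of the 27, beside 14.2% of all genes. The mean deviation of the list was 0.46 in tumour 6 and 0.41 in tumour 5, and between -0.33 and -0.14 in the others. The animal codes of tumours 5 and 6 are close in number, and what the codes stand for is not given in the labels. A relation of the codes to these signals was not tested.

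Each of 5 immune cell lists had 1 variable gene, shares of 5.26% to 12.5% beside the 4.32% of all genes. Mmp12, the macrophage elastase, was the 1 of 18 macrophage genes with an SD of at least 0.5, at 9.23 in tumour 3 and a median of 7.66. The mean deviation of the macrophage list was 0.013 in tumour 3, and 11 of 18 were highest in tumour 5, beside 11.9% of all genes. Nkg7, a granule protein of cytotoxic lymphocytes, was the 1 of 19 T and NK cell genes, with 6.85 at the lowest in tumour 1 and 8.52 at the highest in tumour 6. Jchain, the joining chain of secreted antibodies, was the 1 of 8 B and plasma cell genes, highest in tumour 3 at 7.54 and next in tumour 5 at 7.01. Hdc, the histamine-forming enzyme, was the 1 of 9 mast cell genes, at 8.83 in tumour 3 and at most 7.01 elsewhere. Cpa3 and Cma1 of the mast cell list were instead lowest in tumour 3, at 7.7 and 6.4, and the mean deviation of the list there was 0.008. Lcn2 was the 1 of 14 neutrophil and eosinophil genes and was highest in tumour 5 at 8.93, with the airway genes. Cd68 and Cd3e, markers of macrophages and T cells, had SDs of 0.24 and 0.20.

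**Figure D5:**
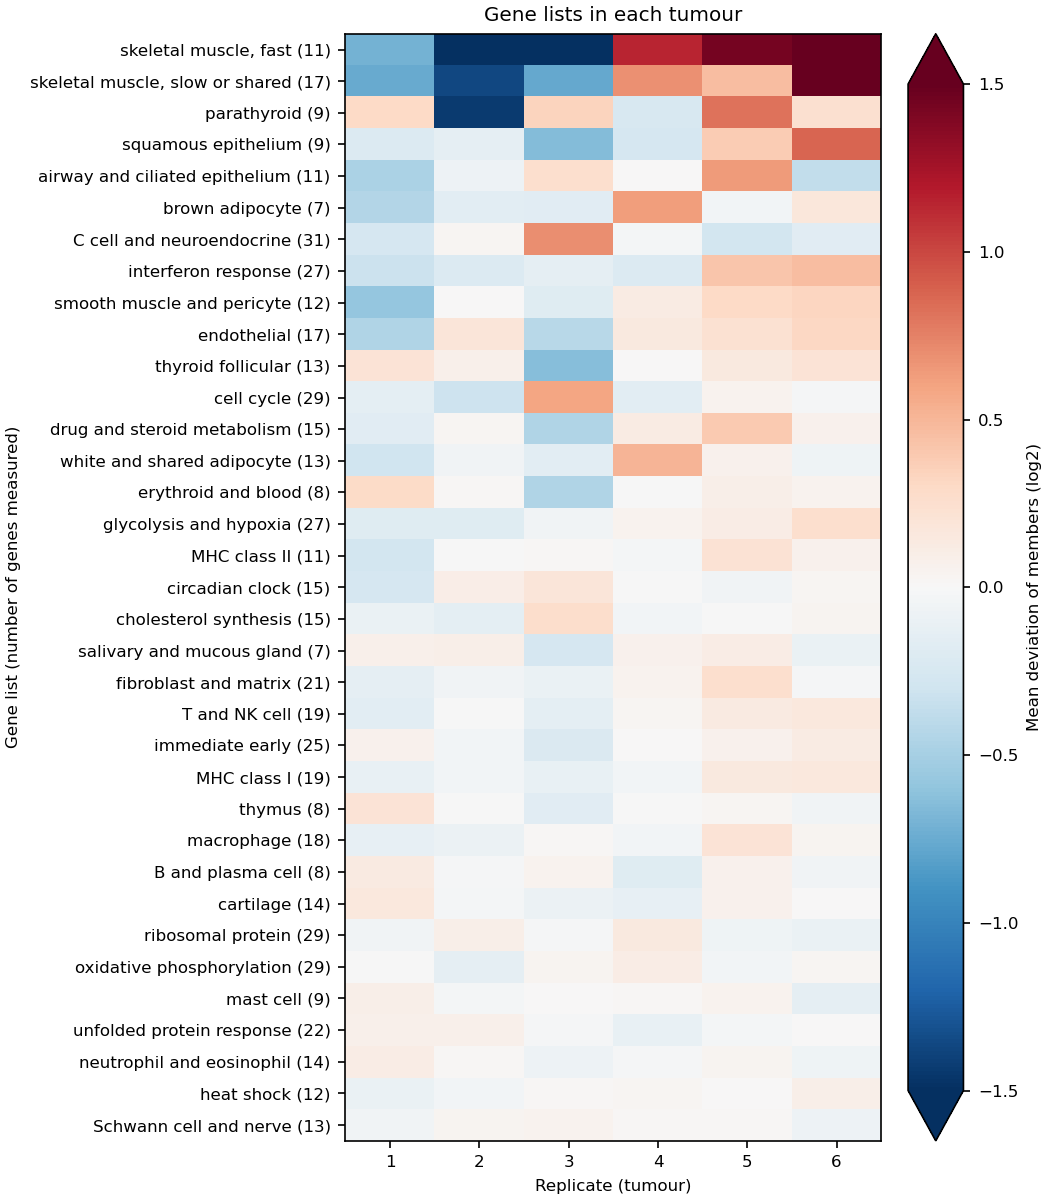
Mean deviation of the members of each of 35 gene lists (rows, with the number measured) from their own mean log2 signal, in each tumour (columns, replicates 1 to 6), ordered by the SD of the 6 means. The colour scale ends at 1.5 in size and is passed by fast muscle in tumours 2, 3 and 6 and by slow or shared muscle in tumour 6; the lower lists are nearly white.

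No member had an SD of at least 0.5 in 12 of 36 lists. The share over all genes was 4.32%, at which lists of these sizes would hold few such members or none. Oxidative phosphorylation had 0 of 29 with a median SD of 0.11, and cytosolic ribosomal proteins 0 of 29 with a median SD of 0.12. Within these small spreads, 18 of 29 oxidative phosphorylation genes were lowest in tumour 2, beside 9.85% of all genes. Tumour 4 was highest for 18 of 29 ribosomal protein genes, beside 10.9% of all genes. Immediate early genes, which are induced rapidly by many stimuli, had 0 of 25 with a median SD of 0.19. The unfolded protein response had 0 of 22, cholesterol synthesis 0 of 15, MHC class I 0 of 19 and MHC class II 0 of 11. Tumour 3 was highest for 12 of the 15 cholesterol synthesis genes, beside 25.4% of all genes. Cartilage, Schwann cell, thymus and salivary gland lists also had none. Of these lists, MHC class II (median SD 0.29), salivary gland (0.27), cholesterol synthesis (0.23), thymus (0.20), immediate early genes and the unfolded protein response (0.17) had a median SD above that of all genes, 0.163. Heat shock genes had 1 of 12 (Cryab), clock genes 1 of 15 (Bhlhe41) and genes of drug and steroid metabolism 4 of 15 (Cyp2f4, Cyp2b1, Cyp2e1 and Fmo2). Of the 27 glycolysis and hypoxia genes 4 reached that SD, and 3 of them, Eno3, Pgam2 and Egln3, were in the cluster led by Myh4. The muscle isozymes Eno3 and Pgam2 had the order of the muscle genes, with 12.47 and 10.21 in tumour 6.

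Pairs of anchor genes from 12 lists were tested for joint variation. Of 66 pairs 4 had an unadjusted exact permutation p under 0.05 by Pearson r and 1 by Spearman rho, and 0 had an adjusted p under 0.05 by either (smallest 0.710 and 0.963). Lum, a matrix proteoglycan, and Adipoq gave r = 0.896 (p = 0.0431) and rho = 0.600 (p = 0.242), with an adjusted p of 0.710 and 0.965. Without tumours 2 and 4 r was 0.687, and without tumour 4 alone it was 0.391. Lum gave 9.34 at the lowest, 9.38 at the median and 9.91 at the highest, in tumour 4, where Adipoq was highest too. Lum and Fos gave r = 0.816 (p = 0.0417) and rho = 0.771 (p = 0.103), with adjusted p of 0.710 and 0.963, and r = 0.703 without tumours 2 and 4. Muscle and parathyroid anchors were in none of the pairs with an unadjusted Pearson p under 0.05. The pair by Spearman rho was Gcm2 and Lum, with rho = -0.886 (exact permutation p = 0.0333, adjusted 0.963) and r = -0.313 (p = 0.376, adjusted 0.859), and r = -0.889 without tumours 2 and 5.

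Of the 627 variable genes, an r of at least 0.9 was reached by 13 with Cdh5 (against 2.18% of all genes), 5 with Adipoq (0.296%), 2 with Myh11 (0.938%) and 1 each with Tshr (1.65%), Lum (0.496%), Cd68 (0.345%) and Cd3e (1.17%). With Fos, an immediate early transcription factor, it was 0 (0.662%). Tshr had 17 variable genes at an r of -0.9 or below, led by the mitotic genes Ska3 (r = -0.954) and Ccnb1 (r = -0.953) and by Gcg (r = -0.950), which were high where Tshr was lowest, in tumour 3. Those values were -0.645, -0.861 and -0.752 without tumours 2 and 3.

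Probe sets that were not used to choose the genes gave a separate reading of the same RNA. For 18 of the 627 variable genes several probe sets were present, and the brightest and the next brightest correlated over the tumours with a median r of 0.975. In all 18 the r was above 0, in 15 it was at least 0.9, and in 10 the next probe set had an SD of at least 0.5 as well. Rrm2 gave r = 0.994, H19, an imprinted non-coding RNA, r = 0.970, and Nalcn r = 0.993. Pgbd5 and Or12d14c had the weakest agreement, at r = 0.452 and 0.231. Among 509 genes with an SD under 0.5, where 20 pairs of probe sets held identical values, the median r was 0.864. The 18 are few, and genes such as Myh4, Pth and Anxa10 had 1 probe set.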

How the data were processed

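Biotin-labelled RNA of 6 tumours was hybridised to Affymetrix Rat Gene 1.0 ST arrays, 1 per animal. Per the labels' protocols, RNeasy Mini kits with a DNase step gave the RNA, which NuGEN kits amplified and labelled. The values deposited by the authors are log2 signals. Per the submitters' processing notes, RMA was used, as was Affymetrix Expression Console (version 1.3.0.187), with role and order unstated. No genome build was stated. Arrays give no read depth, and their number limits the precision.

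Probe sets with 1 gene symbol in the platform annotation were kept (15279 of 15310 had a gene ID in the RefSeq table of GRCr8), and the brightest probe set by mean over the 6 arrays stood for each of 14506 genes. Means, SDs, ranges, principal components (centred, not scaled) and clusters were computed with Python 3.11.15, numpy 2.4.6 and scipy 1.17.1, and the procedure was tested on simulated data. No filter on low signals was applied. Pearson r and Spearman rho over the tumours were tested with two-sided exact permutation over all 720 pairings and adjusted by Benjamini-Hochberg over 66 pairs of 12 anchor genes, or over all genes for 1 anchor. SDs that ranked genes were not tested.

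The members, the 36 gene lists (561 of 664 distinct genes measured) and the anchors were chosen with earlier results of these data known. The rule for naming took the 20 brightest genes, the 30 with the largest SD, up to 4 members of each list with the largest SD, the anchors with their 5 most and up to 3 least similar variable genes, the 5 genes at each end of 3 components, and Cdkn1b, Calca, Calcb, Chga, Ret, Tg and Pth. Not every list member or neighbour of an anchor under that rule appears in the text. Other genes, mainly further members of clusters and lists, were chosen after their values were seen. Alternatives were median centring, a further quantile normalization, other choices of probe set, filters on low signals, the median absolute deviation, rank correlation, list means as anchors, scaled genes and leaving out each tumour in turn. Labels give separate animals, so the spread is that between animals.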

Additional observations from a re-analysis of the deposited data

Results flagged for a closer look

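Among 162 genes named in the text, 36 lists and 3 components, 43 genes, 2 lists and 1 component had a tumour set apart from the rest by more than Dixon's 95% criterion for 6 values, which compares the gap to the nearest tumour with the whole range. Chance alone gives this in about 1 in 20 groups. Of all genes, 1878 of 14506 (12.9%) met it, and 221 of the 627 variable genes (35.2%), which were chosen for their SD over the same values, so that 1 distant tumour favours their choice.

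Tumour 3 was the high one for most. Neuroendocrine and vesicle genes there were Calcb at 12.10, Scg2 at 12.78, Rab3b at 11.20, Syp at 11.27, Syt4 at 10.13, Ptprn at 11.71, Nnat at 11.91, Dnajc12 at 11.83, Foxa2 at 9.86 and Gcg at 12.75. Genes described as far above their other tumours were Anxa10 at 10.72, Opcml at 8.81, Gad2 at 10.15, Hepacam2 at 9.64 and Nalcn at 9.83. Genes of the dividing cell were Top2a at 8.89, Rrm2 at 8.57, Nusap1 at 8.60, Ccne2 at 8.62, Ccnb1 at 7.77, Plk1 at 8.22 and the mitotic kinase Pbk at 7.33. Tubb3 stood at 9.43, the cobalamin carrier Tcn2 at 12.89, the kinesin Kif3c at 8.92, Olr1 at 7.34, Pgbd5 at 9.07 and Hdc at 8.83. The mean deviation of the C cell and neuroendocrine list was 0.69 and the score on the first component 41.5.

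Follicular genes were the ones set apart below, with Dio1 at 11.32, Duox1 at 9.31 and Pax8 at 11.82 in tumour 3 and a mean deviation of the follicular list of -0.64. Pth was set apart below in tumour 2, at 8.33.

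In tumour 6 the slow-fibre genes Myh7 at 10.11, Tnnt1 at 7.94, Tnni1 at 8.87, Tnnc1 at 8.18 and Myl2 at 7.36 stood apart, as did the squamous genes Sprr3 at 9.96 and Tgm3 at 9.11. In tumour 5 these were Bpifa1 at 12.97 and Lcn2 at 8.93, in tumour 4 Lum at 9.91 and in tumour 1 Foxj1 at 7.83.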

How the results depend on the processing

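Of 597 values under alternatives, 559 stayed within 1.5 times the reported one and 38 did not. These values are counts, SDs, shares of variance and a median r. The cause of each move was not tested. The 627 genes with an SD of at least 0.5 were 253 by the median absolute deviation, which gives little weight to 1 distant tumour, and 282 to 768 with 1 tumour left out, lowest without tumour 3. By the median absolute deviation 64 genes reached 1, against 107, and 17 of the 30 largest were shared. The 4 anchor pairs with an unadjusted exact permutation p under 0.05 were 2 after a further quantile normalization, 1 by Spearman rho, 7 with list means as anchors and 2 to 6 with 1 tumour left out. The 549 pairings of an anchor with a variable gene at r of at least 0.9 were 248 by Spearman rho and 103 to 905 with 1 tumour left out, lowest without tumour 3 and highest without tumour 2. Without tumour 3, list members with an SD of at least 0.5 were 1 for C cell, 1 for cell cycle and 1 for follicular genes. The endothelial count of 3 was 1 after quantile normalization. SDs that moved by over 1.5 times with 1 tumour left out were, without tumour 2, Pth 0.313, Gcm2 1.06, Adgrg2 1.20, Rhcg 1.14, Tpx2 1.09 and Pcyt1b 0.994, without tumour 3, Anxa10 0.144 and Sst 0.884, without tumour 6, Krt4 1.10 and Krt13 0.839, without tumour 5, Bpifa1 0.620, and without tumour 1, Lipf 0.807. No paired analysis was possible because the tumours of 1 group only were analysed. Signals near 14 may be compressed, and low signals near 5 may not be above background, which these files do not report.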
